A study of Mus musculus with 4 samples.

Results

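The 45 genes described here build, fold and export collagen: 20 modify, chaperone, cross-link or trim it, 21 fold proteins in the endoplasmic reticulum (ER) or answer to their misfolding, and 4 serve export from the ER. They were listed by name and role, with results of these data already known but with no measured value in the rule, and a gene was measured where at least 1 probe set of the array named it alone. This gave 43 of the 45, with 85 probe sets, among 18193 genes with 34945 probe sets in all. Loxl2 has only probe sets that also name another gene and Fkbp10 has none under its name, so neither is analysed here.

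The samples were growth plate chondrocytes of the proliferative zone, needle-dissected out of 40 µm sections through the knee ends of both leg bones (proximal tibia, distal femur) of mice at postnatal day 7. There were 2 Control samples, labelled wild-type, and 2 Cilia-deleted samples from Col2aCre;Ift88fl/fl mice, all on C57BL/6. In the second group Cre recombinase under a type II collagen promoter removes Ift88, a gene needed to build the primary cilium, from cartilage cells. The labels do not say whether controls carried Cre or floxed alleles, nor how many animals made a sample. The 2 samples of a group are called biological replicates in the design.

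Fibrillar collagen is made as a procollagen chain in the ER. Prolyl hydroxylases stabilise its triple helix, lysyl hydroxylases prepare the residues that later carry cross-links, and dedicated chaperones guard the helix until it leaves in enlarged transport vesicles. Outside the cell the propeptides are cut off and lysyl oxidases join the fibrils. Chondrocytes secrete so much type II collagen and proteoglycan that their ER depends on general chaperones and on the unfolded protein response, the signalling that raises chaperones when folding falls behind. Several hydroxylases and Ero1a are also known to be induced by low oxygen, which prevails inside growth plate cartilage.

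Members were chosen by role and not by sequence. As the unfolded protein response raises ER chaperones, its sequence elements among these genes are no independent result. Some promoters of the ER chaperone genes hold such a sequence, the ER stress element, through which the response acts. It was searched as CCAAT, then 9 bases, then CCACG, on both strands, in RefSeq promoters (GRCm38.p6) from 250 bases before to 50 after the start of a transcript. Promoters were listed for 34 of the 45 genes, 35 promoters in all. The element was found in 7 of the 13 promoters of ER chaperones and folding factors, in 0 of the 14 of collagen modification and processing genes, and in 0.119% of all 32851 promoters. The windows below show it where it was found, on the strand of the gene, with both ends of the element in capitals. Where it lies on the other strand the capitals read CGTGG and ATTGG.
Hspa5 (chr2:34772015-34772053, plus strand): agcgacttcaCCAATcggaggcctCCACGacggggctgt
Hsp90b1, farther element (chr10:86705628-86705666, minus strand): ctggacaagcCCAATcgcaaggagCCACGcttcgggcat
Hsp90b1, nearer element (chr10:86705523-86705561, minus strand): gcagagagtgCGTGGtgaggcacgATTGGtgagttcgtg
Calr (chr8:84847065-84847103, minus strand): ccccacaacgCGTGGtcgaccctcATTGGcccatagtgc
Canx (chr11:50325790-50325828, minus strand): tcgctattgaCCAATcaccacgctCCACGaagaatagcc
Pdia6 (chr12:17266481-17266519, plus strand): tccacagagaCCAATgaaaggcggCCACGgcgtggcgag
Dnajc3 (chr14:118937817-118937855, plus strand): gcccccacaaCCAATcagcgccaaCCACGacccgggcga
Creld2 (chr15:88819510-88819548, plus strand): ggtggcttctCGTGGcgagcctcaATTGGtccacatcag

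A second motif, TGACGTGG, was held by the promoters of Sec23a and Sec24d, 2 of 35 member promoters and 0.676% of all. The core of the hypoxia response element, ACGTG or GCGTG on either strand, was held by 28 of the 35 (80%) and by 43.8% of all promoters. It is short, and its letters can overlap those of both other motifs. A match is a description of the letters and no sign of binding.

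Values are on a log2 scale, relative for each probe set to its own median over the 4 arrays. They show differences between arrays and no expression levels, so genes cannot be ranked by abundance. A gene's value is the mean over its probe sets, and a difference is Cilia-deleted minus Control, tested with limma over all genes. All intervals are 95% intervals from that fit. The smallest p of an exact permutation test with 2 arrays per group is 0.333, which leaves the limma fit, where the spread is pooled across genes. In bulk samples, fewer cells of a type and less RNA per cell cannot be told apart.

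Arrays of one group also differed from each other. A difference of means over 2 arrays varies less than one of single arrays, so the SDs that follow are not like measures. Over all genes the SD was 0.246 for the difference of group means, 0.339 for Control 1 minus Control 2 and 0.239 for Cilia-deleted 1 minus Cilia-deleted 2. Both Control arrays had high Xist and both Cilia-deleted arrays high Y-linked values (differences of -7.36 for Xist and 3.34 for Eif2s3y), so genotype and sex of the animals cannot be told apart in any result. Ift88 itself was at 0.07 and -0.08 in Control and at 0.22 and -0.07 in Cilia-deleted arrays (difference 0.08, SE 0.154), and since the position of its probe set relative to the deleted part was not determined, this does not check the labels. All 8 cartilage markers had at least 1 bright probe set (a lowest log2 value of 8 or more before centring), with differences from -0.23 for Hapln1 to 0.25 for Col2a1. The 3′ minus 5′ value of the Actb control probe sets was 0.10 and -0.05 in Control and -0.10 and -0.14 in Cilia-deleted arrays. That of Gapdh was -0.18 and 0.07 against -0.07 and -0.41, lowest in Cilia-deleted 2, and the part of RNA quality in the results was not tested.

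None of the 43 measured genes passed an adjusted limma p of 0.05, against 2 of 18193 genes in all (0.011%, and 0.0605% at an adjusted p of 0.1). Those 2 were the sex-linked genes Xist and Eif2s3y. The smallest adjusted p among the 43 measured genes was 0.814. At an unadjusted limma p under 0.05 there were 4 lower and 1 higher, or 9.3% and 2.33% of the members, where 3.68% and 2.29% of all genes had such a p. Both Cilia-deleted arrays lay above both Control arrays in 6 members (14%) and below them in 7 (16.3%), against 14.7% and 18.6% of all genes, so the members' shares were near the background. The median difference was -0.07 over the members and -0.01 over all genes. Of the members 24 lay below 0 and 19 above.

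**Figure D1:**
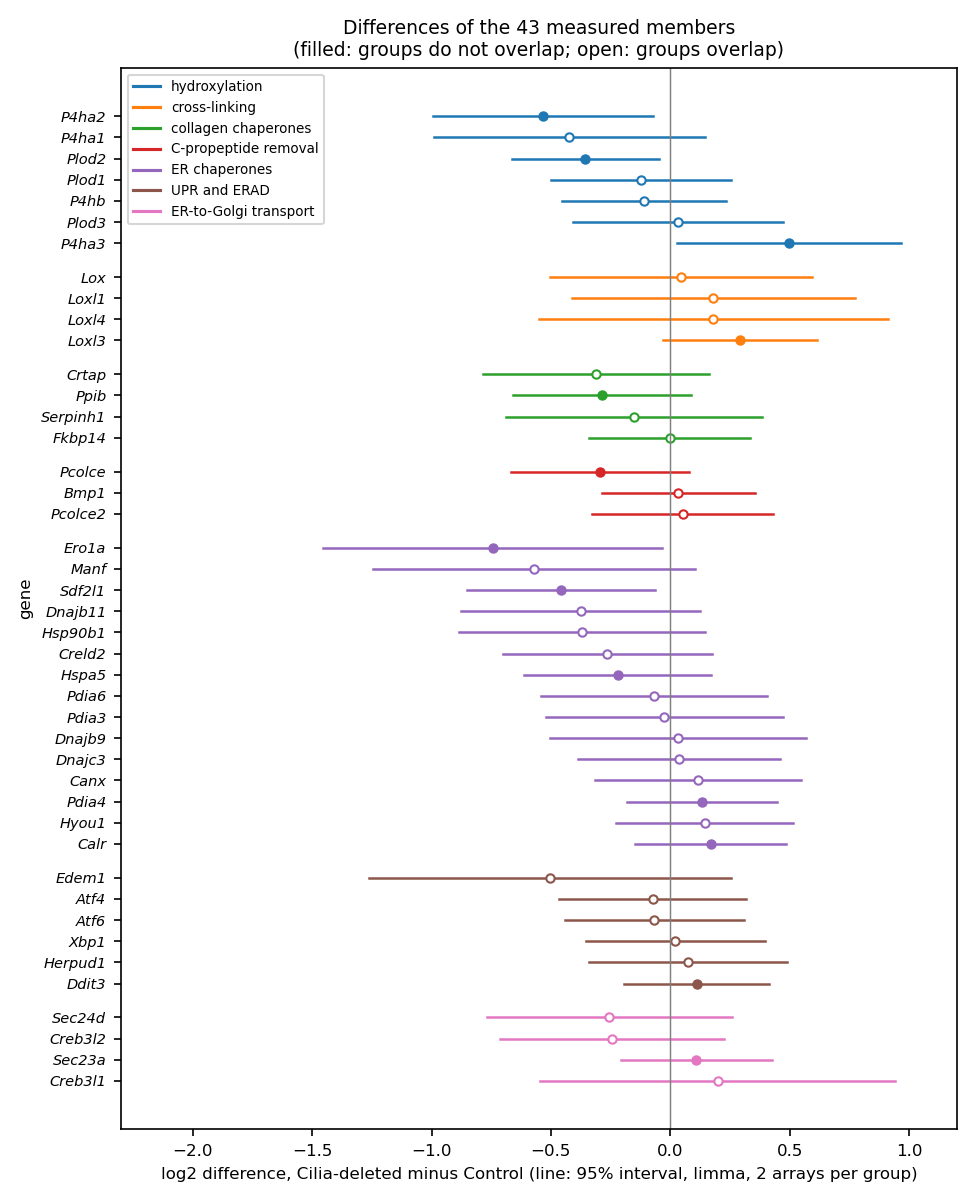
Log2 difference, Cilia-deleted minus Control, of each of the 43 measured genes (horizontal axis) with its 95% interval from limma over 2 arrays per group; colours give the role, filled points mark groups that do not overlap. The intervals of P4ha2, Plod2, Sdf2l1 and Ero1a lie below 0 and that of P4ha3 above it, and 0 of the 43 passed after adjustment.

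Among the collagen prolyl 4-hydroxylases, which add the hydroxyl groups that keep the triple helix stable, the catalytic subunits did not run in one direction. P4ha1, the most widely expressed catalytic subunit (chromosome 10, 59323197 to 59373304, GRCm38.p6), was at 0.55 and -0.02 in Control and at 0.02 and -0.33 in Cilia-deleted arrays. Control 1 stood high, Cilia-deleted 2 low, and the middle arrays were alike. The difference was -0.42 (SE 0.231, interval -0.99 to 0.15, adjusted p = 0.905), and it was -0.14 without Control replicate 1. Both probe sets of P4ha1 gave this order.

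P4ha2, a catalytic subunit known from cartilage and bone cells (chromosome 11, 54100924 to 54131668), was at 0.27 and 0.11 in Control and at -0.11 and -0.57 in Cilia-deleted arrays. The groups did not overlap, and the value was 1.45-fold lower in Cilia-deleted arrays (log2 difference -0.53, SE 0.187, adjusted p = 0.814). It was -0.30 without Cilia-deleted replicate 2 and -0.76 without Cilia-deleted replicate 1. P4ha3, the remaining catalytic subunit (chromosome 7, 100285489 to 100319701), was at -0.12 and -0.62 in Control and at 0.13 and 0.12 in Cilia-deleted arrays. Both Cilia-deleted arrays were higher, 1.41-fold by the means (0.50, SE 0.190, adjusted p = 0.826). Control 2 was far below Control 1, and the difference was 0.25 without Control replicate 2. P4ha3 has a single probe set, which is not of the brightest class. P4hb, the shared beta subunit and a protein disulfide isomerase, was at 0.10 and -0.02 against 0.02 and -0.17 (difference -0.11, SE 0.139), with overlapping groups.

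The promoters of P4ha2 and P4ha3, whose values differed in opposite directions, and of Ero1a, the member with the largest difference, are shown with each hypoxia core in capitals. There are 4 matches for P4ha2, 0 for P4ha3 and 3 for Ero1a. Elsewhere the number of matches went with either sign. Among other members with 3 or more, Ppib (7), Atf4, Crtap, P4ha1, P4hb, Pdia6 and Sec24d (3 each) lay below 0. Plod3 (4), Calr and Ddit3 (3 each) lay above 0. Of other members with 0 matches, Creld2 and Creb3l2 were at -0.26 and -0.25, and Pcolce2, Pdia4 and Xbp1 lay above 0. Fkbp14 had a match in only 1 of its promoters. Whether matches and differences go together was not tested.
P4ha2 (chr11:54100674-54100973, plus strand): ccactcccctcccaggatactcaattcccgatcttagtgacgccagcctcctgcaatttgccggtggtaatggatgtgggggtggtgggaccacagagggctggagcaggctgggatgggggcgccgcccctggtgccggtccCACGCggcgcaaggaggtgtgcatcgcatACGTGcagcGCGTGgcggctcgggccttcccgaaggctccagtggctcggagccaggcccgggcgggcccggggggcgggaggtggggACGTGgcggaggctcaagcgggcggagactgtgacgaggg
P4ha3 (chr7:100285270-100285569, plus strand): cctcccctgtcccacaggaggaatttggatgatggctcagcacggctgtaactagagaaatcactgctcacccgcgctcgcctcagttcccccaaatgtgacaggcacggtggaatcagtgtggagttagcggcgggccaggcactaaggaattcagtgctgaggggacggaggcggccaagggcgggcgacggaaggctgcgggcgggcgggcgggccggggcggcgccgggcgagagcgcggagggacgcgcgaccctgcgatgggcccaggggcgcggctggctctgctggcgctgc
Ero1a (chr14:45318523-45318822, minus strand): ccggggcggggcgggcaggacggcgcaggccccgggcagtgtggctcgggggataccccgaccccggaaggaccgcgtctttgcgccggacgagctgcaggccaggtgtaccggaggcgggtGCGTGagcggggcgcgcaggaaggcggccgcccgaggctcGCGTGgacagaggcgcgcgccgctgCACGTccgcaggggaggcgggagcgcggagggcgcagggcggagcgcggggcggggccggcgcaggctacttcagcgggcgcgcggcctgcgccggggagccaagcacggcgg

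Of the lysyl hydroxylases, Plod2, which hydroxylates lysines of the telopeptides that later form cross-links (chromosome 9, 92539636 to 92608428), had the steadiest difference of all members with an unadjusted p under 0.05. It was at 0.13 and 0.22 in Control and at -0.16 and -0.20 in Cilia-deleted arrays. Both Cilia-deleted arrays were lower than both Control arrays by 1.28-fold on average (-0.36, SE 0.125, adjusted p = 0.814), and its 2 probe sets gave -0.36 and -0.35. With any 1 array left out the difference stayed between -0.40 and -0.31. This steadiness is that of the mean, as the probe sets ordered the arrays within each group in opposite ways. One was at 0.03 and 0.34 against -0.03 and -0.31, the other at 0.22 and 0.10 against -0.29 and -0.10. Plod1, the helical lysyl hydroxylase, had a difference of -0.12 (SE 0.153), with Control 1 highest (0.20). Plod3, which also transfers sugars to hydroxylysine, was at -0.04 and 0.04 against 0.25 and -0.19, with both extremes in the Cilia-deleted group. Over the 7 hydroxylation genes the median difference was -0.12, with 5 below 0 and 2 above.

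Lysyl oxidases oxidise lysines of secreted collagen and elastin so that they can cross-link. By the mean over probe sets, all measured ones were highest in Cilia-deleted 1, as were 16.3% of all genes. Single probe sets differed: 1 of Loxl1 was highest in Cilia-deleted 2 (0.08) and 1 of Lox in Control 2 (0.19). Loxl3 was at -0.09 and -0.15 in Control and at 0.24 and 0.09 in Cilia-deleted arrays. It was the member of this family whose groups did not overlap (0.29, SE 0.131, adjusted p = 0.864). Lox, the founding enzyme of the family, was at -0.11 and 0.09 against 0.34 and -0.27 (difference 0.04, SE 0.222). Here Cilia-deleted arrays held both the highest and the lowest value. Loxl1, known for elastic fibres, was at -0.42 and 0.17 against 0.25 and -0.14 (0.18, SE 0.240), and Loxl4 was at -0.32 and 0.16 against 0.49 and -0.29 (0.18, SE 0.296). Lox, Loxl1 and Loxl4 took either sign as single arrays were left out.

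Markers of fibrous tissue and perichondrium shared the high value in Cilia-deleted 1, while their medians ordered the other arrays differently. All 5 had their highest value in Cilia-deleted 1, among them Postn at 3.47 and Col3a1 at 1.70, and their median by array was -0.21, -0.12, 0.83 and -0.07 from Control 1 to Cilia-deleted 2. The median of the 4 oxidases in the same order was -0.21, 0.13, 0.30 and -0.20. In Cilia-deleted 2, Dcn (0.22) and Thy1 (0.12) lay above both Control arrays. Prrx1 was there at -0.07, Postn at -0.65 and Col3a1 at -1.27. Osteoblast markers gave -0.13, 0.20, 0.59 and -0.62, with Col1a1 at 0.45, Col1a2 at 0.73, Alpl at 0.76 and Sp7 at -0.13 in Cilia-deleted 1. Sp7 did not follow the oxidases, being lower in both Cilia-deleted than in both Control arrays (difference -0.54, SE 0.204). All 4 measured osteoblast markers were lowest in Cilia-deleted 2. Hypertrophic chondrocyte markers were at -0.39, 0.73, 0.65 and -0.40, and osteoclast markers stood apart in Control 2 (median 1.84). The part of these cells in the oxidase values was not tested.

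**Figure D2:**
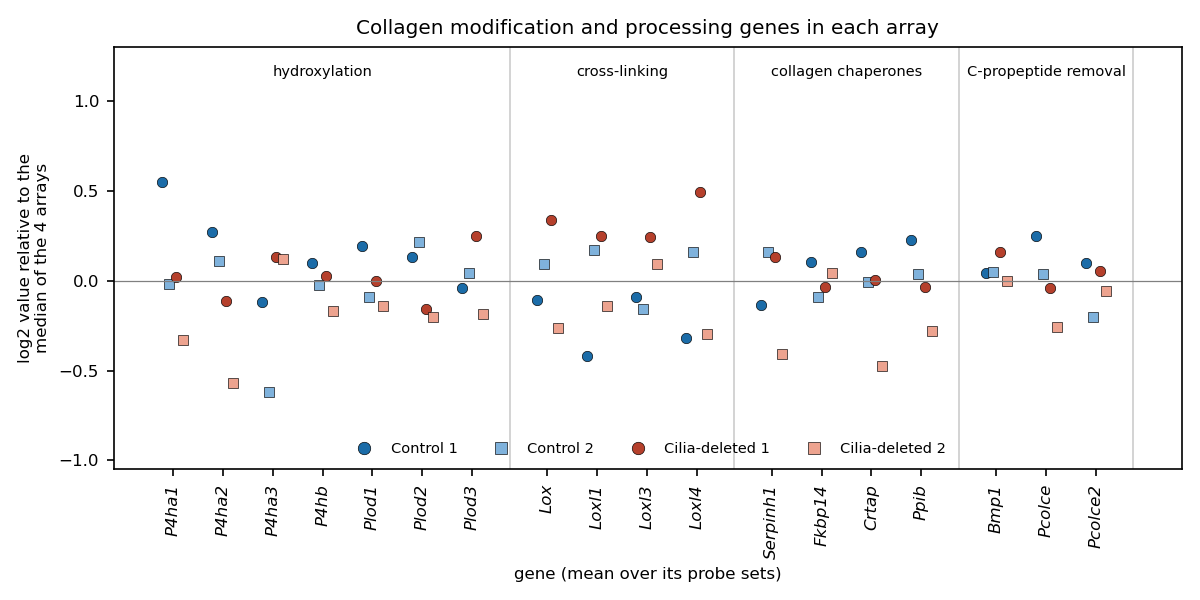
Log2 value of each collagen modification and processing gene (vertical axis, relative to the median of the 4 arrays) with 1 point per array. Cilia-deleted 2 is the lowest array for 6 of the 7 hydroxylation genes, while the 4 lysyl oxidases are highest in Cilia-deleted 1.

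Collagen-specific chaperones and prolyl isomerases had 4 measured genes with differences from -0.31 to -0.0033, and 0 passed. Serpinh1, or Hsp47, which binds the procollagen triple helix (chromosome 7, 99345375 to 99353239), was at -0.13 and 0.16 in Control and at 0.13 and -0.41 in Cilia-deleted arrays. Cilia-deleted 2 alone stood low. The difference of -0.15 (SE 0.218) turned to 0.12 without Cilia-deleted replicate 2. Crtap and Ppib belong to one complex, which 3-hydroxylates a proline of the collagen chain. Crtap was at 0.16 and -0.01 against 0.01 and -0.47 (-0.31, SE 0.192, adjusted p = 0.925), and was at -0.07 without Cilia-deleted replicate 2. Ppib, cyclophilin B, was at 0.23 and 0.04 against -0.04 and -0.28, with groups that did not overlap (-0.29, SE 0.151, adjusted p = 0.898). Its 2 probe sets gave -0.29 and -0.28. Fkbp14, another prolyl isomerase, had a difference of -0.0033 (SE 0.136, interval -0.34 to 0.33), which was 0.02 after renewed quantile normalization.

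Of the genes that remove the C-terminal propeptide, Pcolce, an enhancer of the proteinase, was at 0.25 and 0.04 in Control and at -0.04 and -0.26 in Cilia-deleted arrays. In this mean its groups did not overlap (-0.29, SE 0.151, adjusted p = 0.891). Its probe sets gave -0.38 and -0.20, and in the latter the groups overlapped (0.21 and -0.04 against 0.04 and -0.27). Pcolce2, a second enhancer, was at 0.10 and -0.20 against 0.06 and -0.06 (0.05, SE 0.154). Bmp1, the proteinase itself, had a difference of 0.03 (SE 0.130), the mean of 3 probe sets at 0.40, 0.03 and -0.33.

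General ER chaperones and folding factors had differences from -0.74 to 0.17, reaching farther below 0 than above it. Of the 15, 9 lay below 0, and the median was -0.07. With the brightest probe sets only it was -0.24. Ero1a, the oxidase that drives disulfide bond formation (chromosome 14, 45283087 to 45318572), was at 0.98 and 0.09 in Control and at -0.25 and -0.18 in Cilia-deleted arrays. Both Cilia-deleted arrays were lower, by 1.68-fold on average (-0.74, SE 0.287, interval -1.45 to -0.04, adjusted p = 0.83), and 1.36% of all genes had a larger difference. Control 1 set most of this size: leaving out Control replicate 1 gave -0.30, and leaving out Control replicate 2 gave -1.19. The 3 probe sets gave -1.11, -0.58 and -0.54. In the probe set at -0.58 the groups overlapped. It was at 1.275 and -0.12 in Control and at -0.06 and 0.06 in Cilia-deleted arrays.

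Sdf2l1, a partner of the chaperone BiP and an early gene of the unfolded protein response (chromosome 16, 17130138 to 17132383), was at 0.37 and 0.10 in Control and at -0.10 and -0.34 in Cilia-deleted arrays. The groups did not overlap, with a 1.37-fold lower value (-0.46, SE 0.160, adjusted p = 0.814) and a range from -0.59 to -0.33 as single arrays were left out. Manf, a stress-induced secreted protein of the ER, was at 0.61 and -0.01 against 0.01 and -0.55. The middle arrays were alike and the difference (-0.57, SE 0.274, adjusted p = 0.881) rested on the outer ones, being -0.26 without Control replicate 1 and -0.29 without Cilia-deleted replicate 2.

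Hspa5, or BiP, the main ER Hsp70 and the usual readout of ER stress (chromosome 2, 34772090 to 34776529), was at 0.05 and 0.07 in Control and at 0.01 and -0.34 in Cilia-deleted arrays. The groups did not overlap in this mean, but they overlapped in each of its probe sets, and Cilia-deleted 1 lay close to both Control arrays. The difference was -0.22 (SE 0.159, interval -0.61 to 0.17, adjusted p = 0.947), and -0.05 without Cilia-deleted replicate 2. Hsp90b1, or Grp94, had a difference of -0.37 (SE 0.209), Dnajb11, a BiP co-chaperone, -0.38 (SE 0.203), and Creld2, a stress-induced ER protein, -0.26 (SE 0.178). By the mean over probe sets, these 3 were highest in Control 1 and lowest in Cilia-deleted 2, with overlapping groups. In 1 probe set of Hsp90b1, Cilia-deleted 2 (0.02) lay above Control 2 (-0.05) and Cilia-deleted 1 (-0.02). The lectin chaperone Calr went the other way, at -0.05 and -0.08 against 0.03 and 0.17 (0.17, SE 0.128), with groups that did not overlap.

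The 7 genes with the ER stress element shown above did not share a direction. Hspa5, Hsp90b1, Pdia6 and Creld2 had differences below 0 and Calr, Canx and Dnajc3 above 0, with a median of -0.07. The 8 ER chaperones and folding factors with no such element shown ranged from -0.74 (Ero1a) to 0.14 (Hyou1), with Pdia3, Dnajb9 and Pdia4 at -0.02, 0.03 and 0.13. Among these, Manf and Hyou1 had no promoter in the table used. Hyou1 was lowest in Control 1 (-0.25) and within 0.05, 0.03 and 0.06 in the other arrays.

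The measured regulators of the unfolded protein response had differences between -0.07 and 0.11, and 0 passed. Ddit3, or Chop, the pro-apoptotic transcription factor of its late phase (chromosome 10, 127290793 to 127296291), was at -0.09 and -0.01 in Control and at 0.05 and 0.07 in Cilia-deleted arrays. Although the groups did not overlap, the difference was 0.11 (SE 0.124, interval -0.20 to 0.41, adjusted p = 0.991). Xbp1, whose spliced form drives chaperone and secretory genes (chromosome 11, 5520641 to 5525993), was at 0.02 and -0.13 against 0.10 and -0.17 (0.02, SE 0.152, interval -0.35 to 0.39). The array values used here do not separate spliced from unspliced Xbp1. Atf4 and Atf6, transcription factors of the other branches, each had a difference of -0.07 (intervals -0.47 to 0.32 and -0.44 to 0.31). Much of the response acts by splicing, cleavage and translation, which these values do not measure.

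Of the genes of ER-associated degradation, Edem1, which directs misfolded glycoproteins to disposal, was at 0.34 and -0.07 in Control and at 0.07 and -0.80 in Cilia-deleted arrays. Cilia-deleted 2 stood far below the other 3 arrays. The difference of -0.50 (SE 0.307, adjusted p = 0.925) was -0.07 without Cilia-deleted replicate 2 and -0.94 without Cilia-deleted replicate 1. Herpud1, a stress-induced membrane protein of the same route, had a difference of 0.07 (SE 0.168), with groups that overlapped.

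Creb3l1 and Creb3l2 encode transcription factors that raise secretory genes in bone and cartilage, and Sec23a and Sec24d encode coat proteins of the vesicles that leave the ER. Creb3l2, or BBF2H7, which acts in chondrocytes (chromosome 6, 37327255 to 37442276), was at 0.38 and -0.08 in Control and at -0.01 and -0.18 in Cilia-deleted arrays. Its difference of -0.25 (SE 0.190, adjusted p = 0.956) was -0.01 without Control replicate 1. The 2 probe sets gave -0.44 and -0.05. Creb3l1, or OASIS, known from osteoblasts, was at -0.34 and 0.23 against 0.52 and -0.23 (0.20, SE 0.302), the same order of arrays as for Loxl1 and Loxl4.

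Sec24d (chromosome 3, 123264801 to 123365641) was at 0.15 and -0.06 in Control and at 0.06 and -0.48 in Cilia-deleted arrays. Its difference of -0.26 (SE 0.208, adjusted p = 0.959) turned to 0.02 without Cilia-deleted replicate 2. Sec23a, its partner in the inner coat, had a difference of 0.11 (SE 0.129). Both carry the TGACGTGG motif named above, and their differences had opposite signs.

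**Figure D3:**
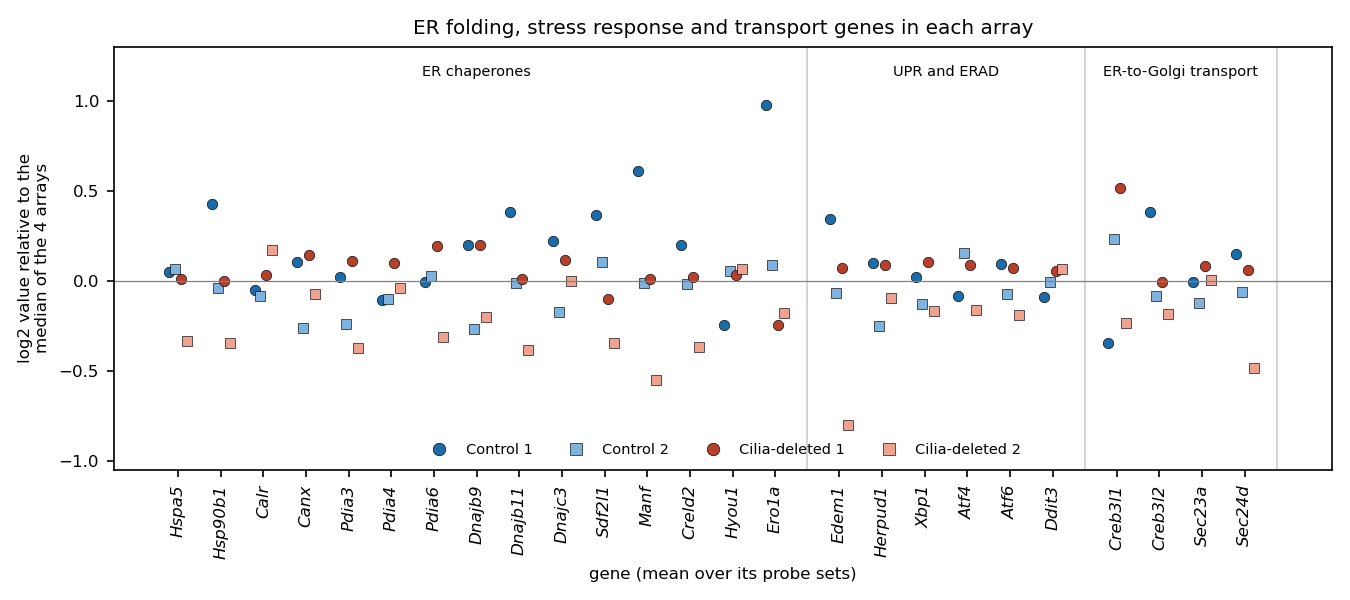
Log2 value of each ER folding, stress response and transport gene (vertical axis, relative to the median of the 4 arrays) with 1 point per array. Control 1 is high for Hsp90b1, Dnajb11, Manf and Ero1a, Cilia-deleted 2 is low for Edem1, Manf and Sec24d, and the regulators Xbp1, Atf4, Atf6 and Ddit3 lie between -0.19 and 0.16 in every array.

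The gap between both Control arrays was larger than the group difference for many members. Such a gap of single arrays varies more than a difference of means, so it is apt to be the larger. In 27 of 43 (62.8%) the gap between both Control arrays exceeded the difference of the group means, against 66.8% of all genes. Cilia-deleted 2, the array with the lowest Gapdh 3′ minus 5′ value, was the lowest for 26 members (60.5%, against 25% of all genes), and Control 1 the highest for 22 (51.2%, against 32.4%). Both held together for 16 members (37.2%, against 14.8%). The median of the members by array was 0.10 in Control 1, -0.02 in Control 2, 0.06 in Cilia-deleted 1 and -0.19 in Cilia-deleted 2. Without Cilia-deleted replicate 2 the median difference was 0.10 with 18 members below 0, and without Cilia-deleted replicate 1 it was -0.21 with 34 below 0. These shares describe 4 arrays and were not tested.

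Probe sets of one gene disagreed in sign for 12 of the 28 members that have several. The widest gap was that of Pdia3, a disulfide isomerase for glycoproteins, at -0.42 and 0.37, followed by Canx, the lectin chaperone calnexin, with 3 probe sets from -0.25 to 0.49. Xbp1 had 3 probe sets between -0.19 and -0.13 and the other at 0.54. Pdia6, a BiP-associated disulfide isomerase, was at -0.42 and 0.28. The precision of the deposited numbers places each probe set in a coarse class by its lowest log2 value before centring, and a probe set can fall into too bright a class by chance. In the brightest class, with a lowest value of 8 or more, 39 of 59 member probe sets lay below 0 (66.1%, median -0.13), against 51.9% of all such probe sets (median -0.01). In the class of 4 to 8 it was 11 of 24 (45.8%, median 0.01), against 48.7% of all. Tested singly, 0 of the 85 passed in limma, against 20 of 45037 (0.0444%), and 4 lower (4.71%) and 1 higher (1.18%) had an unadjusted p under 0.05, against 3.18% and 3% of all probe sets.

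**Figure D4:**
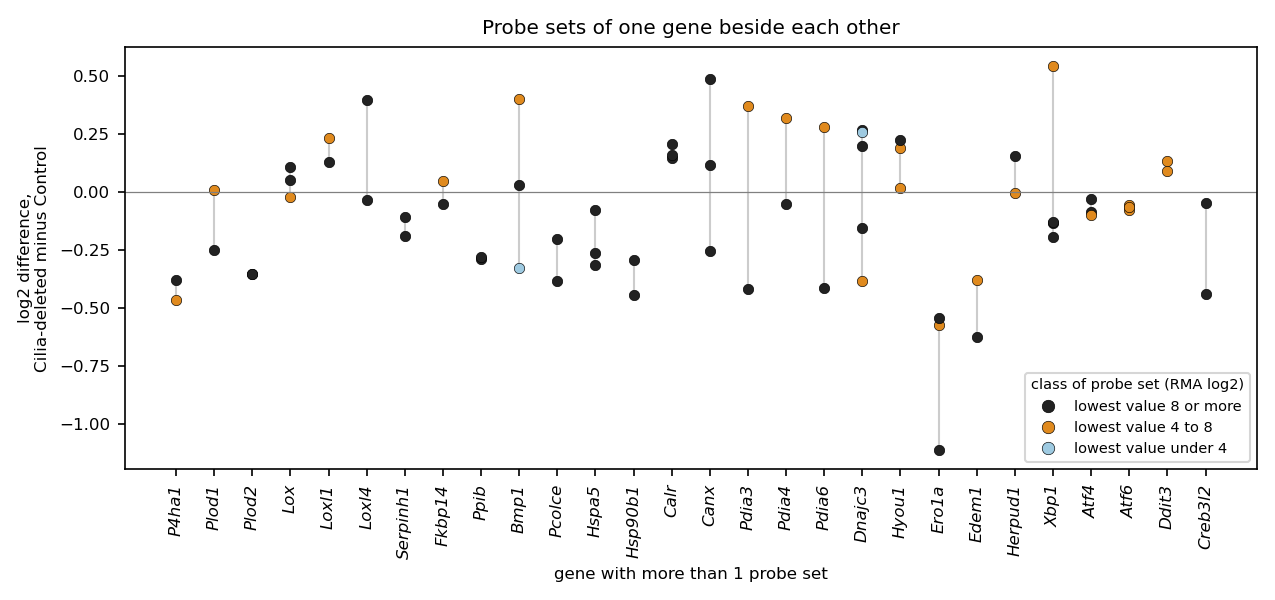
Log2 difference, Cilia-deleted minus Control, of each probe set (points) for the 28 members with more than 1 probe set, coloured by the class of the lowest RMA value. The points of Ppib, Plod2 and Calr lie close together, while those of Pdia3, Canx, Xbp1 and Pdia6 lie on both sides of 0.

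Other genes of these routes were counted from a list of 76 (further hydroxylases, glycosyltransferases, disulfide isomerases, translocon, vesicle coat and stress response genes), of which 74 were measured. None passed. An unadjusted limma p under 0.05 was found for 8 lower and 1 higher (10.8% and 1.35%, against 3.68% and 2.29% of all genes), and 47 lay below 0 (63.5%, against 51.8% of all genes), with a median of -0.12. The higher gene was Tmem38b, an ER cation channel (0.46, SE 0.140), named after its value was seen. P3h2, a prolyl 3-hydroxylase, was at 0.37 and 0.50 in Control and at -0.37 and -1.46 in Cilia-deleted arrays (-1.35, SE 0.345, adjusted p = 0.635). Pdia5, a disulfide isomerase, was at 0.75 and 0.17 against -0.17 and -0.62 (-0.85, SE 0.246, adjusted p = 0.708). Selenos, a component of ER-associated degradation, had a difference of -0.63 (SE 0.194) and Fkbp2, a prolyl isomerase of the ER, -0.62 (SE 0.221). In each of these 4 genes, picked for the largest differences, both Cilia-deleted arrays were below both Control arrays. This held for 25.7% of the 74 and 18.6% of all genes, and the reverse for 8.11% and 14.7%. Control 1 was the highest array for 44 of the 74 and Cilia-deleted 2 the lowest for 39.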

How the data were processed

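The authors' deposited table holds log2 values of 45101 probe sets in 4 arrays. RMA is the tool listed in the submitters' processing notes. Each probe set's median over the arrays is 0 in the file (largest departure 5e-07), so levels are lost. The log base is inferred from the values. Per the labels, 50 ng of RNA per sample was amplified over a pair of cycles from T7-linked oligo-dT primers, which favours 3′ ends. The 64 control probe sets were left out. Of 45037 others, 34945 name 1 gene, 932 several and 9160 none; symbols came from the array annotation, updated through RefSeq gene records (34741). Gene values are means over probe sets, fitted with limma 3.58.1 (R 4.3.3), group only, eBayes without trend, two-sided, Benjamini-Hochberg over 18193 genes, threshold 0.05. The number of arrays limits precision. The fit was tested on simulated data.

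Full values are given for members with an unadjusted p under 0.05, the 2 largest differences of each role and 10 fixed members; Loxl1, Creb3l1, Calr, Pdia3, Canx, Pdia6 and the other members named with values were chosen after their values were seen. The members and lists were chosen with earlier results of these data known. Alternatives are named in the closing section. The planned protein comparisons were not run, as no protein sequences were used here.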

Additional observations from a re-analysis of the deposited data

How the results depend on the processing

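No member passed in limma under any alternative tried: quantile normalization done again, array medians subtracted, medians over probe sets, plain probe sets only (37 members), the dimmest probe sets left out, a treat test at 0.5, unmoderated spread, an adjusted p of 0.1, the replicate block, single probe sets, each array left out, and, chosen after seeing the data, brightest probe sets only (39 members). The genes called over the whole array numbered 2 in the fit reported, 14 after quantile normalization, 4 without the dimmest probe sets, 1 without moderation, 11 at 0.1, 7 with the brightest probe sets, and 20 single probe sets. With array 1 or 2 of both groups taken as a pair (the replicate block), 1 gene and 0 members were called; the deviations of same-numbered samples had a correlation of 0.139, so with only 2 numbers they are not shown to pair the samples.

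With the brightest probe sets the median was -0.1522 over all members, -0.1109 over collagen genes, -0.1866 over ER folding and stress genes, -0.2419 over ER chaperones and -0.1067 over stress response and degradation genes. The median over hydroxylation genes was -0.3032 with the brightest probe sets and -0.3029 over single probe sets, and that over C-propeptide genes was 0.1328 with plain probe sets and -0.0868 over single ones. Signs turned for Lox (-0.0174) and Xbp1 (-0.0714) with medians over probe sets, Fkbp14 (0.0193) and Pdia3 (0.0269) after quantile normalization, Pdia4 (-0.0521) and Xbp1 (-0.1529) with the brightest probe sets, and Dnajc3 (-0.0197) without the dimmest. The causes were not tested.

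Leaving out each array in turn gave 2 to 56 called genes (56 without Cilia-deleted replicate 1, 38 without Cilia-deleted replicate 2) and 0 to 1 other pathway genes, the 1 without Cilia-deleted replicate 1. A group left with 1 array is then assumed to vary like the other. Medians ran from -0.2083 to 0.0962 for all members, -0.2114 to 0.0468 for collagen genes and -0.1991 to 0.0962 for ER folding and stress genes. They ran from -0.2664 to -0.0498 for hydroxylation genes, -0.4158 to -0.0562 for collagen chaperones and -0.0996 to 0.1071 for C-propeptide genes. For cross-linking genes the range was -0.1155 to 0.3714, so this median took either sign. It was -0.3216 to 0.0962 for ER chaperones, -0.1571 to 0.0838 for stress response and degradation genes and -0.2544 to 0.0825 for transport genes. Differences ran from -0.2664 to 0.0197 for Plod1, -0.1871 to 0.2513 for Plod3, -0.2579 to 0.3469 for Lox, -0.1164 to 0.4750 for Loxl1, -0.2146 to 0.5732 for Loxl4 and -0.4240 to 0.1195 for Serpinh1. Others ran from -0.1022 to 0.0956 for Fkbp14, -0.0475 to 0.1134 for Bmp1, -0.0996 to 0.2038 for Pcolce2, -0.0684 to 0.2985 for Canx, -0.2650 to 0.2155 for Pdia3 and -0.3216 to 0.1850 for Pdia6. Further ones ran from -0.2021 to 0.2688 for Dnajb9, -0.1621 to 0.2332 for Dnajc3, -0.0071 to 0.2930 for Hyou1, -0.1020 to 0.2475 for Herpud1, -0.1160 to 0.1567 for Xbp1 and -0.1991 to 0.0499 for Atf4. The rest ran from -0.1981 to 0.0636 for Atf6, -0.1753 to 0.5725 for Creb3l1 and -0.5257 to 0.0151 for Sec24d. In all, 22 members kept their sign whichever array was left out and 21 did not. Precision is limited by 2 arrays per group, by levels removed in centring, and by a coarse class in place of signal over background.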
